A study of Mus musculus with 8 samples.

Results

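C29 given alone was compared with vehicle in tumors of NIC-5231, a mouse mammary cancer line driven by ErbB2, to ask where inhibition of the orphan nuclear receptor ERRα left the tumor genome with less or more DNA methylation. The comparison rests on 4 of the 8 libraries of the series, the 2 of tumors treated with C29 and the 2 of tumors given vehicle, which the labels call DMSO. The cells had been placed in mammary fat pads of NSG hosts aged 5 to 7 weeks. Mice of both groups received intraperitoneal injections every 2 days of the same saline, PEG and DMSO mixture, with C29 at 10 mg/kg in one group only, 5 mice per group. Each library is reduced representation bisulfite sequencing (RRBS) of pooled tumor DNA from 2 mice, so that 2 libraries stand for 4 animals. Of 3078745 autosomal CpG cytosines listed in at least 1 of these 4 libraries, 881422 (28.6%) had 10 or more reads in all 4 and were kept. They were averaged with equal weight over 1000 bp tiles, of which 74373 held 3 or more kept cytosines, out of 149898 with any, and over gene promoters (1000 bp upstream of any annotated start site) and gene bodies. NSG hosts are mice, so reads from host stroma cannot be told apart from those of tumor cells by species. Bulk DNA likewise cannot tell fewer cells of a type from less methylation per cell.

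ERRα (Esrra) binds DNA as an orphan receptor, works with the coactivators PGC-1α and PGC-1β, and drives genes of mitochondrial respiration. C29 is an inverse agonist that blocks its activity. Methylation of CpG cytosines is copied to the new strand after replication by Dnmt1, guided by Uhrf1, is set anew by Dnmt3a and Dnmt3b, and is removed through oxidation by the Tet enzymes. The methyl group comes from S-adenosylmethionine, a product of the methionine cycle. RRBS reads CpG-rich fragments cut at CCGG sites, so promoters and CpG islands are deeply covered and most of the genome between them is not.

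Regions chosen for the results that follow are shown first, 3 lower and 2 higher with C29 among the tiles named by the rule stated with the tile results, and the tile of Gdnf, which held many measured cytosines. All are the plus strand of GRCm38, written 5′ to 3′, with the CpG dinucleotides that were measured in all 4 libraries in capitals. The label exon means that some, not always all, cytosines of the tile lie in an exon.
Myocd upstream region (chr11:65270123-65270273): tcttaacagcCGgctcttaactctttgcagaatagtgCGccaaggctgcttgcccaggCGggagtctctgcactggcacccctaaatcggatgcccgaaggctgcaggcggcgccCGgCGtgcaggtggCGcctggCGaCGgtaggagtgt
Phactr1 intron (chr13:42710148-42710202): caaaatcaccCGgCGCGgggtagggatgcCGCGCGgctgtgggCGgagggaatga
Pitpnc1 intron (chr11:107379589-107379770): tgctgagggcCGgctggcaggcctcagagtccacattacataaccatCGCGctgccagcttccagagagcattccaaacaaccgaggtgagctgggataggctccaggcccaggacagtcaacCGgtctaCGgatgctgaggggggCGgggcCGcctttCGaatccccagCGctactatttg
Anks1 intron (chr17:28055830-28055932): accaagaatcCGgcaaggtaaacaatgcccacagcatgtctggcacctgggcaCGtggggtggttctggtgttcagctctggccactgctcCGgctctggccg
Gria2 exon (chr3:80801047-80801166): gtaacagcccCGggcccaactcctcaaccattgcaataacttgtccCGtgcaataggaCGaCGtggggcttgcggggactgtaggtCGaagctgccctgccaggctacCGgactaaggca
Gdnf exon (chr15:7815589-7815857): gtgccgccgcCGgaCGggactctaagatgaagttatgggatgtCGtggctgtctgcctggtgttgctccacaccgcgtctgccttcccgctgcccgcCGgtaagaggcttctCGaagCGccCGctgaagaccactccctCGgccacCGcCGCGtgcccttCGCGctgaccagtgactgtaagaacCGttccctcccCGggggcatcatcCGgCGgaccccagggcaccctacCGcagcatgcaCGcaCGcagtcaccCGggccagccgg

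The 4 libraries were close to one another in depth and in mean methylation. The vehicle libraries held 70254846 and 70790628 reads over listed CpG cytosines and the C29 libraries held 69842185 and 73325247, with a median of 26, 26, 27 and 23 reads per cytosine. In the methylated spike-in control, 98.2% and 98% of calls were methylated in the vehicle libraries and 97.8% and 97.9% in the C29 libraries. In the unmethylated control these shares were 0.234%, 0.302%, 0.268% and 0.329%. Both C29 libraries thus lay slightly below both vehicle libraries in the methylated control, and the groups overlapped in the unmethylated one. No pair of libraries held the same counts at more than 1.07% of cytosines.

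Mean methylation was slightly lower with C29, mostly through 1 library. Over all kept cytosines it was 33.9% in both vehicle libraries, 33.7% in C29 1 and 32.6% in C29 2. Both C29 libraries thus lay below both vehicle libraries, and C29 2 lay well below C29 1. The group means were 33.9% ± 0.0166 (SD, n = 2) and 33.2% ± 0.783 (SD, n = 2), a difference of -0.765 percentage points, with a two-sided exact permutation p of 0.333. That is the smallest p that 2 libraries against 2 can reach. Without C29 2 the difference was -0.211 points and without C29 1 it was -1.32. With each cytosine weighted by its reads the difference was -3.03 points, but the groups then overlapped (exact p = 0.667). C29 2 was the lowest library on all 19 autosomes, whereas C29 1 lay below both vehicle libraries on 16 of them and between the vehicle libraries on 3.

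The lower level was seen in CpG-rich and genic sequence and not between genes. Promoter cytosines averaged 10.9% and 11% in the vehicle libraries against 10.5% and 9.76% with C29. Exonic cytosines averaged 35.5% and 35.6% against 35% and 33.6%. In both classes the C29 libraries were below the vehicle libraries. Intergenic cytosines averaged 61% and 60.6% with vehicle and 61.1% and 60% with C29, and here the C29 libraries enclosed the vehicle pair. Tiles with at least 50% of their bases in repeats went the other way, at 76.3% and 76.1% with vehicle and 76.5% in both C29 libraries. In tiles with a CpG observed/expected ratio of 0.6 or more, which include most CpG islands, the levels were 8.34% and 8.47% with vehicle and 7.92% and 7.12% with C29. None of these differences could pass an exact test with 2 libraries per group.

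**Figure D1:**
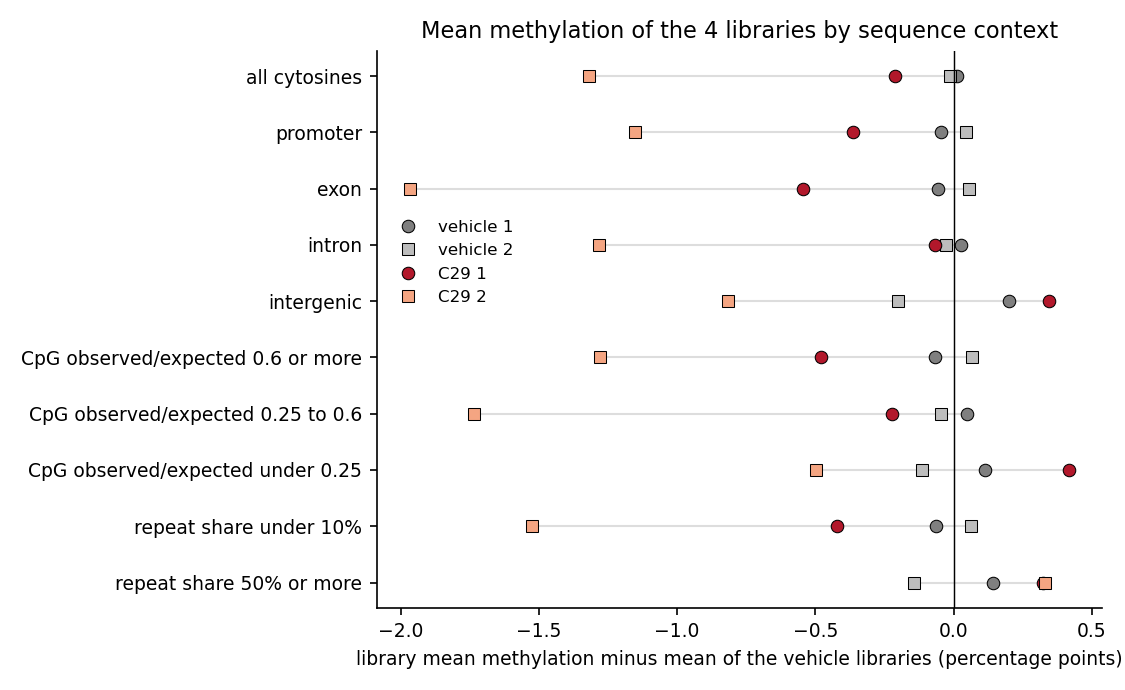
Mean methylation of each library minus the mean of the 2 vehicle libraries, in percentage points, for 10 classes of autosomal cytosines (grey, vehicle; red and orange, C29). C29 2 is the lowest library in every class except repeat-rich tiles, where both C29 libraries lie above both vehicle libraries, and C29 1 stays within 0.6 points of the vehicle mean.

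Single tiles moved much further than the mean, and did so between libraries of one group as well. The vehicle libraries differed from each other by 25 points or more in 7696 tiles, and the C29 libraries in 8554. Across the 4 pairs of a vehicle with a C29 library this count ran from 7304 to 9189. Pearson's r across the 74373 tiles was 0.918 for the vehicle pair, 0.909 for the C29 pair and 0.904 to 0.921 between groups. Tiles of one library are not independent replicates, and these r values describe spread only. By these measures a C29 library was about as far from a vehicle library as 2 libraries of the same treatment were from each other.

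Both C29 libraries were below both vehicle libraries in 11470 tiles (15.4% of those tested) and above both in 9716 (13.1%). A gap of more than 25 points between the nearest libraries of the groups was left in 347 lower and 294 higher tiles, and one of more than 40 points in 67 and 48. Reads summed per tile were tested with the logistic likelihood-ratio test of methylKit. A tile was called at an adjusted p (Benjamini-Hochberg) under 0.01 with a difference of at least 25 points. It called 1997 tiles lower (2.69%) and 1545 higher (2.08%) with C29, and in 1590 (2.14%) and 1237 (1.66%) of these the libraries of the groups were also separated. In either direction, 3542 tiles were called (4.76%), 21186 separated (28.5%) and 2827 both (3.8%). This test counts reads and takes no account of spread between libraries. Its p-values thus cover counting error at most. Copies made by PCR are not marked and cytosines can share reads, so even that error can be understated. A tile's own p is therefore not given. edgeR's quasi-likelihood test, which does use the spread between libraries, called 0 tiles, with 2619 tiles (3.52%) at an unadjusted p under 0.05. The overdispersion-corrected F test of methylKit also called 0, with 3240 tiles at an unadjusted p under 0.05.

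Each library decided many of the calls. Separated tiles numbered 42030 without vehicle 1, 41331 without vehicle 2, 42801 without C29 1 and 41477 without C29 2, where 1 library alone has to stand apart from a pair. Called and separated tiles then numbered 5794, 4963, 6197 and 5112. Without C29 1, 3873 of them were lower and 2324 higher with C29. Without C29 2 the split was 2686 against 2426, without vehicle 2 it was 2585 against 2378, and without vehicle 1 it was 2897 each way, so that the excess of lower tiles was gone. Of the 2827 tiles called and separated with all libraries, 2207 were still called without vehicle 1, 2054 without vehicle 2, 2168 without C29 1 and 2012 without C29 2.

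Among the named tiles, the loss with the widest gap between the groups lay just upstream of Myocd, the gene of myocardin, a coactivator of serum response factor in heart and smooth muscle. Named tiles are the 10 with the widest gap in each direction among 465 lower and 251 higher called, separated tiles at protein-coding genes with 100 or more reads in each library. Reads of a region, here and below, are summed over its cytosines. A read that covers several cytosines is counted once for each, so the molecules are fewer. The 8 cytosines upstream of Myocd stood at 90.3% and 62.5% with vehicle, on 173 and 292 reads, and at 0% and 14.1% with C29, on 108 and 260 reads. C29 1 had no methylated read there, C29 2 was low, and the vehicle libraries were heavily methylated though far from equal. The mean fell by 69.4 points. Cmah, which encodes the hydroxylase that makes the sialic acid Neu5Gc, had 3 cytosines of an internal promoter at 100% in both vehicle libraries and at 15.9% and 51.6% with C29. The vehicle libraries were at the ceiling there, and the C29 libraries were both below it but unlike each other.

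Introns of Phactr1 and Rcor1 lost methylation evenly in both C29 libraries. At Phactr1, a regulator of protein phosphatase 1 and actin, 7 cytosines stood at 93.6% and 92.6% with vehicle and at 41.1% and 44.6% with C29 (140 to 231 reads per library). At Rcor1, whose product CoREST carries the histone demethylase LSD1, 4 intronic cytosines stood at 88.6% and 85% with vehicle and 36% and 39.8% with C29. In both introns the libraries of a group lay within 4 points of each other. They fell by 50.2 and 48.9 points. In an exon of Trpm1, a cation channel of retinal bipolar cells and melanocytes, 5 cytosines were fully methylated with vehicle and at 31.6% and 57.5% with C29.

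Losses also lay at Eid2, in the Hoxa cluster and at Pitpnc1. Around the start of Eid2, an inhibitor of the acetyltransferase p300, 8 cytosines stood at 68.3% and 75.1% with vehicle and 26% and 20.9% with C29. With at least 20 reads per cytosine the Eid2 difference shrank to -13.1 points and was no longer called. In the Hoxa cluster, 4 cytosines upstream of Hoxa4 and inside Hoxa3 stood at 77.9% and 75.9% with vehicle and 34% and 32.7% with C29. The groups there were far apart and each was tight, but with cytosines of 5 reads and more let in the difference was -12.6 points and the call was lost. The intron of Pitpnc1, a phosphatidylinositol transfer protein, was the one named tile with no methylated read in either C29 library, at 40.9% and 53.8% with vehicle over 9 cytosines. The C29 libraries had 447 and 313 reads there, summed over cytosines that can share reads. Mettl24 (79.5% and 76.7% against 35% and 22.1%) and Phf21b (90.6% and 98.9% against 49.3% and 49.2%) complete the losses.

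The named gain with the widest gap lay in an intron of Slc38a8, a transporter of neutral amino acids such as glutamine. The 5 Slc38a8 cytosines stood at 21.4% and 11.8% in the vehicle libraries and at 67.4% and 67.5% in the C29 libraries, on 213 to 513 reads. The C29 libraries were nearly equal and both lay far above the vehicle libraries. The mean rose by 50.8 points. At Anks1, an adaptor downstream of receptor tyrosine kinases, 4 intronic cytosines stood at 45.6% and 31.3% with vehicle and 89.7% and 86.1% with C29, a rise of 49.4 points.

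Gains in exons were found at Itgax, Gria2, Erc2 and Acyp1, among others. In an exon of Itgax, the CD11c integrin chain of dendritic cells, methylation was 43.4% and 42% with vehicle and 83.3% and 80% with C29. In Gria2, an AMPA receptor subunit, 6 exonic cytosines stood at 14.6% and 11.5% with vehicle and 47.7% and 53.6% with C29. Erc2, a scaffold of the presynaptic active zone, stood at 39.9% and 39.4% with vehicle and 73.1% and 73.8% with C29. In these 3 exons the libraries of each group lay within 6 points of each other and the groups were at least 33.2 points apart. Acyp1, an acylphosphatase gene that also belongs to the ERRα signature described later, stood at 42.3% and 55.3% with vehicle and 95% and 90.7% with C29 over 4 cytosines. Of these 4, 2 lay in an exon.

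The remaining named gains lay at Cfap43 and Itprip, Col14a1, Gnas and Bace2. The tile shared by Cfap43 and Itprip stood at 42.4% and 35.2% with vehicle and 94.4% and 77.4% with C29. Col14a1, which encodes a collagen of fibrils, had no methylated read in either vehicle library and stood at 49.1% and 34.2% with C29. The tile of Gnas, the imprinted gene of the stimulatory G protein α subunit, stood at 37.4% and 17.7% with vehicle and 70.7% and 81.1% with C29. Bace2, an aspartic protease, stood at 17.7% and 19.2% with vehicle and 62.7% and 52% with C29. All 20 named tiles were called without any 1 of the libraries, and edgeR called none of them. The named tiles were picked for wide gaps, all of 32.8 points or more, above the minimum difference of a call. Leaving out a library could not bring a difference under that minimum. Only the adjusted p and the direction in summed reads were thus open to change. With reads summed over cytosines the differences shrank to -27.1 points at Hoxa3 and Hoxa4, 33.4 at Slc38a8 and 29.2 at Acyp1, and these tiles were still called. None of the 20 tiles held the ERR response element TCAAGGTCA on either strand.

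**Figure D2:**
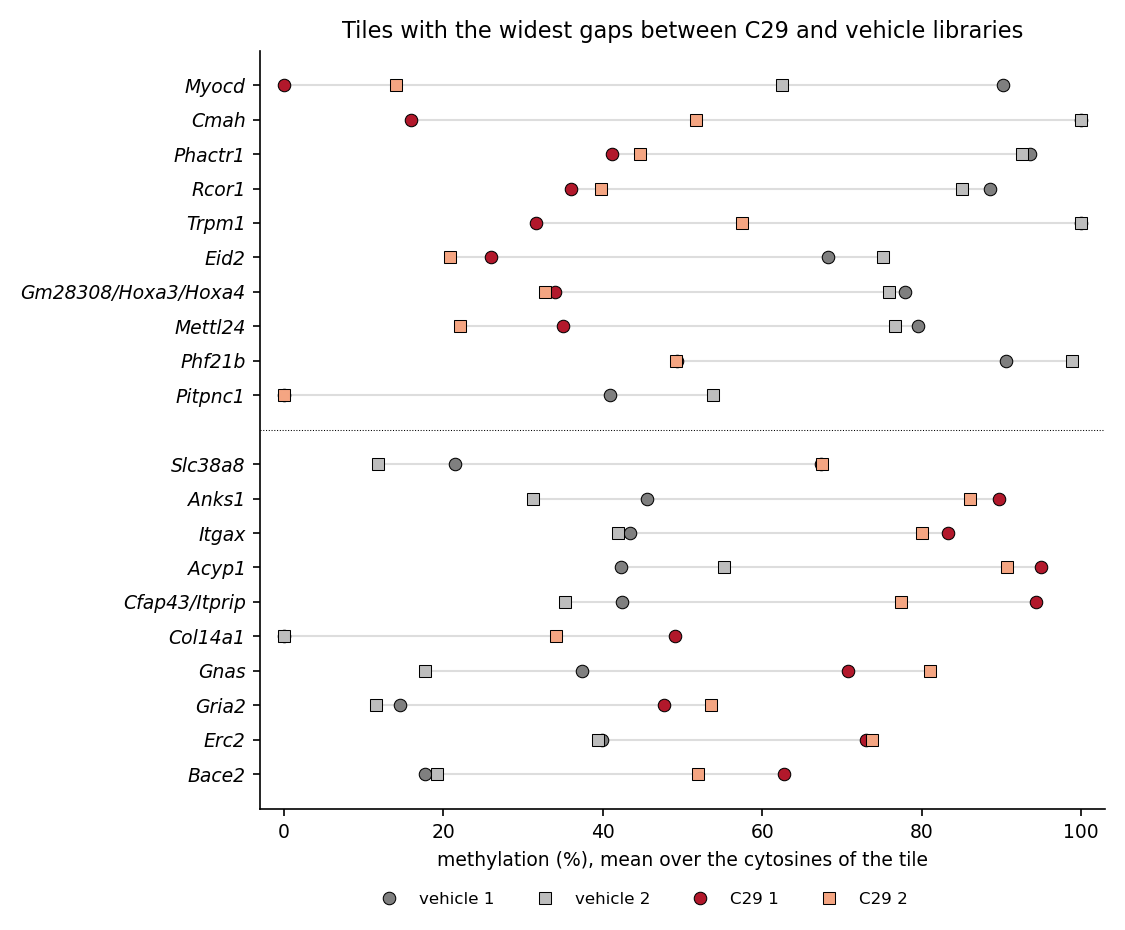
Methylation (%) of the 20 named tiles in each library (grey, vehicle; red and orange, C29), with the 10 lower tiles above the dotted line and the 10 higher ones under it. Within each tile the C29 libraries lie on one side of both vehicle libraries, from 32.8 points away at Bace2 to 48.4 points away at Myocd.

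Among called, separated tiles, losses and gains were about equally common where few cytosines were measured, and losses prevailed where many were. Among called, separated tiles with 3 cytosines, 681 were lower and 665 higher with C29. The counts were 546 and 453 at 4 or 5 cytosines, 236 and 98 at 6 to 9, 102 and 20 at 10 to 19, and 25 and 1 at 20 or more. Among these called tiles the share of lower ones thus went from 50.6% to 96.2% across these classes, with 26 tiles in the last. Without C29 2 it went from 51% to 81.8% (27 lower and 6 higher at 20 or more cytosines), without C29 1 from 57.5% to 96% (97 and 4), without vehicle 1 from 45.6% to 90.7% (49 and 5), and without vehicle 2 from 47.6% to 88.6% (39 and 5). The lower share was highest in the widest class with any 1 library left out. The total in that class moved by more than 1.5 times with each library left out except C29 2, without which the higher count went from 1 to 6. Over all separated tiles, called or not, the split was weaker. It was 2714 lower and 2612 higher at 3 cytosines, 1423 and 907 at 10 to 19, and 1721 and 1215 at 20 or more.

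**Figure D3:**
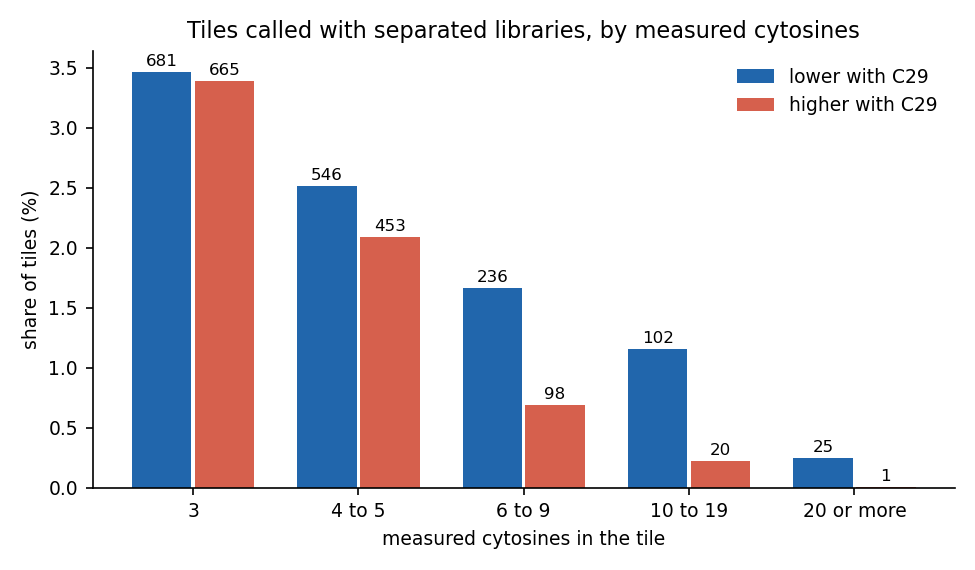
Share of tested tiles (%) that were called and separated, lower (blue) or higher (red) with C29, by the number of measured cytosines in the tile, with the number of tiles above each bar. The bars are about equal in height at 3 cytosines (681 and 665 tiles) and differ at 20 or more (25 and 1).

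The 26 tiles with 20 or more cytosines were singled out after their values were seen, and the one that rose was in Shank3, a postsynaptic scaffold gene, at 20.7% and 28.6% with vehicle and 50.5% and 48.9% with C29. The Shank3 difference was 21.1 points without vehicle 1 and 24.2 without C29 1, and then it was not called. Of the 26 tiles, 5 stayed called without any 1 of the libraries, 7 without 3 of them and 14 without 2. The 5 were tiles of Gdnf, Rnf225, Nos3 and Sall3 and 1 on chromosome 5 at no protein-coding gene. In these the groups lay 25.9 to 35.9 points apart, which keeps a difference past 25 points whichever library is left out.

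Gdnf, which encodes the glial cell line-derived neurotrophic factor, lost methylation over 35 cytosines of a tile that overlaps an exon. Its level was 84.4% and 84.2% with vehicle and 48.3% and 38.8% with C29, on 1087 to 1900 summed reads, or 13 to 150 per cytosine. The vehicle libraries were nearly equal in the tile mean, though not at each cytosine. The C29 libraries were both far below them, and the mean fell by 40.8 points. Of the 35 cytosines, 24 lay below both vehicle libraries in both C29 libraries, 0 lay above both and 11 overlapped. Several neighbouring cytosines carried the same value and read count in a library, such as 50% at 18 reads in C29 1, so the 35 are not independent. With at least 20 reads per cytosine the difference was -21.7 points and the tile was not called.

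**Figure D4:**
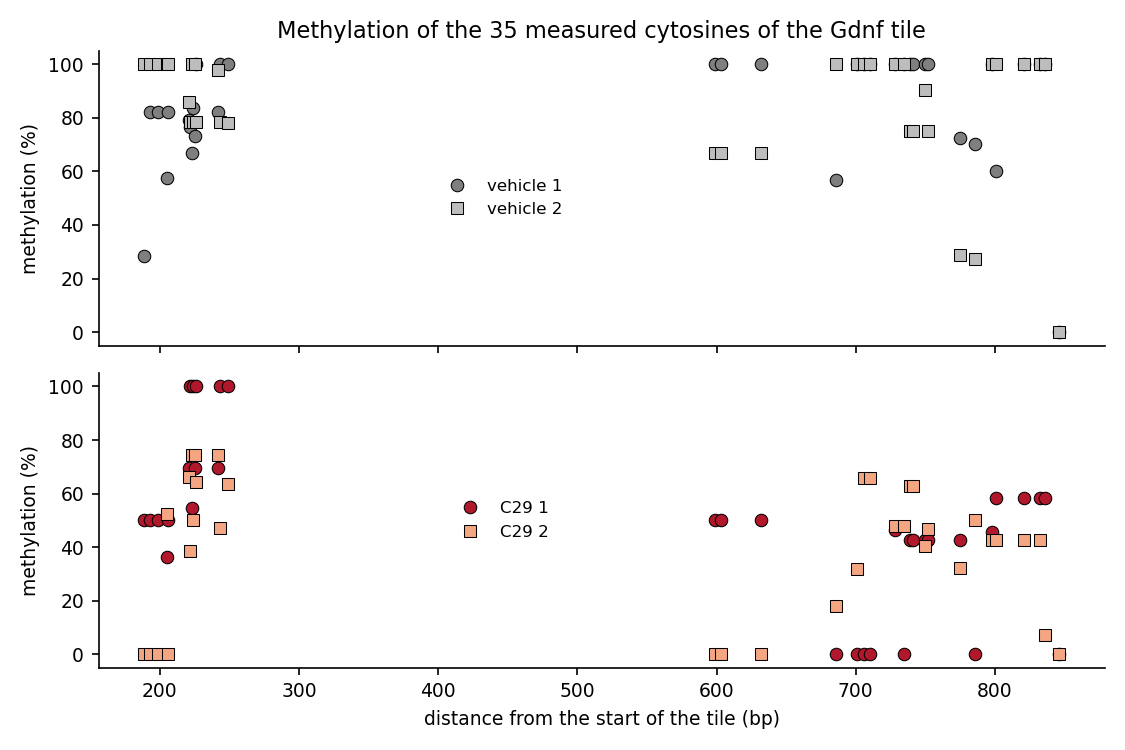
Methylation (%) of the 35 measured cytosines of the Gdnf tile against their distance from the start of the tile in bp, for the vehicle libraries (upper panel) and the C29 libraries (lower panel). Many vehicle values lie at 100%, and the C29 values between 599 and 836 bp lie at or under 66%.

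Other losses over many cytosines lay at Nos3, Sall3 and Rnf225. The promoter tile of Nos3, the endothelial nitric oxide synthase, stood at 78.3% and 69% with vehicle and 41.6% and 24.5% with C29 over 20 cytosines. That of Sall3, a zinc finger factor of limb and nerve development, stood at 66.3% and 80.1% with vehicle and 40.4% and 26.2% with C29 over 68 cytosines, the most of any tile in this class. In Rnf225, a RING finger gene, 24 cytosines of a tile that overlaps an exon stood at 86.2% and 89.7% with vehicle and 55.9% and 52.6% with C29. In each of these 3 tiles the groups were apart and all libraries were above 20%, so methylation was partly kept. Wide tiles of Hic1, Efnb3 and Hhipl1 rested on C29 2, with differences of -10.5, -7.30 and -7.10 points without it. Hic1 also lost its call without vehicle 2 (-20.7 points) and Efnb3 without vehicle 1 (-24.2).

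Called tiles lay mostly at intermediate levels, and fewer of them lay at promoters than of all tested tiles. Of tiles with a mean level of 40 to 60% over the 4 libraries, 10.7% were called and separated, against 0 of 16622 tiles under 5% and 0 of 8601 tiles over 95%, where a change of 25 points can hardly fit. Promoter tiles made up 14.2% of the lower and 5.82% of the higher called tiles, beside 25.5% of all tested tiles and 11.1% of those with a mean level of 20 to 95%. Beside tiles of that level, promoters were thus more common among lower tiles and less common among higher ones. Intergenic tiles made up 32.6% of the lower and 41.3% of the higher tiles, beside 26% of all and 34.7% of those at 20 to 95%. The letters TCAAGGTCA, the full ERR response element, were found on either strand in 2.70% of the lower, 2.43% of the higher and 2.38% of all tested tiles. The shorter-matched form TNAAGGTCA, which includes it, was found in 6.54%, 4.37% and 5.18%. A match is a run of letters and does not show binding.

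Some genes held several called tiles of one direction. A called, separated tile lay in 1403 genes, 198 held at least 2, and in 97 of these the tiles went both ways. In 13 genes at least 3 tiles went one way only. The genes named below were picked from these 13, so shares of called or separated tiles above those of all tiles follow from that choice. Pax6, the master regulator of eye and pancreas development, had 3 lower tiles, with falls of 26.3 to 43.8 points, and 4 of its 10 tested tiles were separated below and 0 above, beside 15.4% and 13.1% of all tiles. Rora, a nuclear receptor of the clock, had 3 lower tiles among 23 tested and Slit1, an axon guidance ligand, 3 among 15, beside 2.14% of all tiles. Grip1, a scaffold of AMPA receptors, had 4 higher tiles among 31 tested, beside 1.66% of all tiles, but 5 of its tiles were separated below and 9 above. Cadm1, a cell adhesion molecule lost in carcinomas, had 3 higher tiles among 10, with rises of 29.9 to 32.6 points, and Wdfy4, a gene of cross-presentation in dendritic cells, 3 among 8.

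More promoters were called lower than higher. Of 14342 promoters with 3 or more cytosines, 153 were called lower (1.07%) and 65 higher (0.453%) by the logistic test. The C29 libraries were separated below in 2054 (14.3%) and above in 1496 (10.4%), and 132 (0.92%) and 50 (0.349%) were both called and separated. In either direction these were 218 (1.52%), 3550 (24.8%) and 182 (1.27%). Called promoters numbered 419 without vehicle 1 (263 lower, 156 higher), 338 without vehicle 2 (226, 112), 424 without C29 1 (309, 115) and 289 without C29 2 (173, 116). edgeR called 0, with 526 promoters (3.67%) at an unadjusted p under 0.05, and the F test of methylKit also called 0, with 577. With protein-coding genes only, 74 were called lower and 35 higher.

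Besides Myocd, the named lower promoters include those of Barx1, Kcna3 and Atp2a3. The promoter of Barx1, a homeobox factor of stomach mesenchyme and craniofacial tissue, stood at 93.9% and 73% with vehicle and 7.09% and 35.7% with C29 over 11 cytosines, and fell by 62.1 points. Kcna3, the potassium channel Kv1.3 of T cells, stood at 62% and 99.5% with vehicle and 28.6% and 0% with C29 over 4 cytosines. Its vehicle libraries differed by more than the gap between the groups, and with cytosines of 5 reads and more the difference was -33.7 points in place of -66.5. Atp2a3, the calcium pump SERCA3, stood at 64.1% and 91.1% with vehicle and 32.8% and 18.4% with C29.

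Tighter losses were those of Ppp1r3c, Cpxm1 and Adgrb3. Ppp1r3c, which brings protein phosphatase 1 to glycogen, stood at 66% and 66.7% with vehicle and 31.9% and 30.6% with C29 over 10 cytosines. Cpxm1, a carboxypeptidase-like secreted protein, stood at 52.2% and 51.1% with vehicle and 20% and 20.8% with C29. Adgrb3, an adhesion receptor of synapses, had the most measured cytosines of the named promoters, 19, at 63.7% and 62.7% with vehicle and 34.3% and 32.7% with C29. In these 3 promoters the libraries of a group lay within 2 points and the groups 28.4 to 34.1 points apart. Grin3a, Hspa12b and Frrs1l fell by 36.7, 35 and 33.8 points. All 10 lower promoters stayed called without any 1 of the libraries.

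The named higher promoters were less steady than the lower ones when a library was left out. Pax3, a factor of neural crest and muscle precursors, stood at 16.4% and 40% with vehicle and 62.4% and 68.6% with C29, and its difference was 5.02 points with cytosines of 5 reads and more. Mrpl42, a mitochondrial ribosomal protein, stood at 27.1% and 50% with vehicle and 71.5% and 88.2% with C29. Cftr, the chloride channel of secretory epithelia, stood at 23.9% and 5.98% with vehicle and 43.9% and 56.2% with C29, and lost its call with cytosines of 5 reads and more (24.8 points). Pax3, Mrpl42 and Cftr were still called without any 1 of the libraries. Gm9857 lost its call without vehicle 1 (19.3 points). 2610318N02Rik and Scnn1a, the sodium channel α subunit, lost theirs without vehicle 1 (23.5 and 21.5 points) or C29 2 (18.6 and 18.2). Cntnap4 lost its call without vehicle 1 (17.1 points) or C29 1 (22.5), and with cytosines of 5 reads and more (16.6). Gfpt2 lost it without vehicle 2 (13.4 points) or C29 1 (22.4), and Brinp2 without vehicle 2 (20.1), C29 1 (33.1) or C29 2 (18.1). With at least 20 reads per cytosine the differences of Gfpt2 and Brinp2 were 7.47 and 10.7 points and neither was called, and with 5 reads and more Gfpt2 was also lost (24.2 points).

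More gene bodies were called lower than higher as well. Of 19581 bodies, 180 were called lower (0.919%) and 113 higher (0.577%), 3571 were separated below (18.2%) and 2421 above (12.4%), and 151 (0.771%) and 88 (0.449%) were both called and separated. In either direction these were 293 (1.5%), 5992 (30.6%) and 239 (1.22%). Called bodies numbered 552 without vehicle 1 (300 lower, 252 higher), 493 without vehicle 2 (280, 213), 572 without C29 1 (380, 192) and 476 without C29 2 (243, 233), where the directions were nearly even. edgeR called 0 bodies, with 657 (3.36%) at an unadjusted p under 0.05, and the F test called 0, with 834.

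Genes of the receptor targeted by C29 and its partners were read first among the lists. Of 9 genes for ERR receptors, coactivators and corepressors, 7 promoters were measured. None was called, and 2 were separated below and 1 above (28.6% and 14.3%, beside 14.3% and 10.4% of all promoters), with a median difference of 0.0741 points beside 0 over all promoters. The Esrra promoter was nearly free of methylation, at 0.221% and 0% with vehicle and 0.548% and 0.257% with C29. That of Esrrg, the related receptor ERRγ, was the one with a wide difference, at 38.7% and 40.4% with vehicle and 21.1% and 25.3% with C29 over 53 cytosines. Both C29 libraries lay well below both vehicle libraries there, by a mean of -16.4 points, short of the 25 points a call needs. Of 9 bodies 1 was separated below and 1 above (11.1% each, beside 18.2% and 12.4% of all bodies). That of Ppargc1b, which encodes the coactivator PGC-1β, stood at 27.2% in both vehicle libraries and at 25% and 24.2% with C29, and that of the coactivator Pprc1 at 13.5% and 13.1% against 14.1% and 13.9%.

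The ERRα signature, a list of mostly mitochondrial genes taken from the study, was close to all genes. Of its 87 measured promoters 0 were called by the logistic test, 13 were separated below and 8 above (14.9% and 9.20%, beside 14.3% and 10.4% of all promoters), and the median difference was -0.0694 points. Idh3a, a subunit of mitochondrial isocitrate dehydrogenase, had promoter levels of 5.69% and 6.25% with vehicle and 2.68% and 3.26% with C29. Of 87 bodies 0 were called, 12 were separated below and 10 above (13.8% and 11.5%, beside 18.2% and 12.4% of all bodies), with a median difference of 0 beside -0.189 over all bodies. Suclg1, of succinyl-CoA ligase, stood at 13.3% and 1.67% with vehicle and 22.2% in both C29 libraries. Syngr3, a synaptic vesicle protein, stood at 56.3% and 66% with vehicle and 38.2% and 44.2% with C29. The body of Acyp1 stood at 76.9% and 73.4% with vehicle and 88% and 91.9% with C29, over 10 cytosines that include the 4 of its called tile. The Acyp1 promoter overlapped between the groups, at 46.2% and 19.4% with vehicle and 30.9% and 15.9% with C29. The study took this signature from an earlier publication and gives it as longer than the 116 genes used here. Of these, 6 lie outside the annotated autosomal genes.

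Promoters of the enzymes that write and erase DNA methylation showed no difference that separated the groups. Of 8 measured, 0 were called and 0 separated. The Dnmt1 promoter was at 0% in both vehicle libraries and in C29 1 and at 0.0817% in C29 2. Tet1 was at 42% and 28.7% with vehicle and 36.9% and 30.4% with C29, and the groups overlapped. Of 8 bodies, 4 were separated below and 1 above (50% and 12.5%, beside 18.2% and 12.4% of all bodies). Among them Dnmt3b, a de novo methyltransferase, stood at 21.6% in both vehicle libraries and 19.7% and 19% with C29 over 83 cytosines. The body of Dnmt1 was level, at 58.6% and 57.8% against 58.4% and 58.5%. That of Dnmt3l, the cofactor of de novo methylation in germ cells, was called higher on 4 cytosines, but its libraries overlapped, at 78.8% and 16.8% with vehicle and 100% and 57% with C29. Without vehicle 2 the Dnmt3l difference was -0.322 points, without vehicle 1 61.7, without C29 1 9.17 and without C29 2 52.2, and with cytosines of 5 reads and more it was 17.2 and not called.

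In the methionine and folate cycles, bodies lay below vehicle more often than above. Of 17 promoters 0 were called, 1 was separated below and 2 above (5.88% and 11.8%, beside 14.3% and 10.4% of all promoters), with a median of 0.362 points. Of 21 bodies 0 were called, 7 were separated below and 2 above (33.3% and 9.52%, beside 18.2% and 12.4% of all bodies), with a median of -2.97 points. Gnmt, which uses up S-adenosylmethionine, stood at 80.2% and 82.2% with vehicle and 63.5% and 75.1% with C29. Shmt2, the mitochondrial serine hydroxymethyltransferase, stood at 99.7% and 100% with vehicle and 91.1% and 89.2% with C29. Cth, which releases cysteine from cystathionine, went the other way, at 83.5% and 74.3% with vehicle and 93.6% and 88.6% with C29.

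Among mammary lineage and ErbB genes no promoter or body was called. Of 14 promoters 4 were separated below and 1 above (28.6% and 7.14%, beside 14.3% and 10.4% of all promoters), and of 26 bodies 7 below and 4 above (26.9% and 15.4%, beside 18.2% and 12.4% of all bodies). The body of Erbb2, the receptor whose activity drives this line, stood at 44.9% and 44% with vehicle and 40.9% and 34.5% with C29 over 78 cytosines and 10150 to 13187 reads. Esr1, the estrogen receptor α gene, stood at 68.3% and 66.4% with vehicle and 56.6% and 60.4% with C29 in its body, and at 30.6% and 34.5% against 20.6% and 27.9% in its promoter. In Pgr, the progesterone receptor gene, the promoter stood at 39.2% and 33.1% with vehicle and 47.4% and 47.9% with C29, while the body stood at 36.8% and 25.7% against 23.3% and 18%. The 2 regions of Pgr thus lay on opposite sides of vehicle.

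Interferon regulatory factors and antigen presentation genes had 0 calls. Of 16 promoters 3 were separated below and 2 above (18.8% and 12.5%, beside 14.3% and 10.4% of all promoters), and of 16 bodies 2 below and 0 above (12.5% and 0%, beside 18.2% and 12.4% of all bodies). Irf5, a factor of inflammatory cytokine genes, stood at 11.8% and 12.5% with vehicle and 7.78% and 7.22% with C29 in its promoter. Irf4, a factor of lymphocytes, overlapped in its promoter, at 37.2% and 25% with vehicle and 44.3% and 21.7% with C29. The body of Ciita, the transactivator of MHC class II genes, stood at 49.5% and 54% with vehicle and 42% and 44.7% with C29.

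Tumor suppressor and Wnt antagonist promoters lay below vehicle in 6 of 18 and above in 2 (33.3% and 11.1%, beside 14.3% and 10.4% of all promoters), with a median of -1.17 points. One was called, that of Timp3, an inhibitor of metalloproteinases, at 48.5% and 33.9% with vehicle and 26.1% and 0% with C29 over 4 cytosines. The Timp3 call was lost without vehicle 1 (-20.8 points) or C29 2 (-15.1), and with cytosines of 5 reads and more the difference turned to 6.94 points. Hic1, a transcriptional repressor silenced by methylation in many tumors, stood at 40.3% and 45.8% with vehicle and 34.8% and 16.1% with C29 in its promoter, and at 75.5% and 75.3% against 55.4% and 64.8% in its body. Of 25 bodies 7 were separated below and 3 above (28% and 12%, beside 18.2% and 12.4% of all bodies). The body of Dkk1, a secreted Wnt antagonist, was called higher, at 54.3% and 42.1% with vehicle and 70.1% and 84.7% with C29. It was not called without vehicle 2 (23.1 points) or C29 2 (21.9), and with cytosines of 5 reads and more the difference was 6.96 points and the libraries overlapped.

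Epithelial and mesenchymal identity genes had 0 calls. Of 15 promoters 0 were separated below and 4 above, all of them under 4% methylated in every library (0% and 26.7%, beside 14.3% and 10.4% of all promoters). Of 20 bodies 7 were separated below and 2 above (35% and 10%, beside 18.2% and 12.4% of all bodies). The body of Zeb2, a repressor of the epithelial state, stood at 26.5% and 23.5% with vehicle and 18.5% and 16.4% with C29 over 117 cytosines. The body of Cldn4, a tight junction claudin, stood at 13.9% and 29.2% with vehicle and 2.23% and 11.4% with C29. Germline genes, which adult tissues keep methylated, also had 0 calls, with 2 of 11 promoters below and 2 above (18.2% each) and 2 of 14 bodies below and 4 above (14.3% and 28.6%), beside the shares just given over all genes. The promoter of Ddx4, an RNA helicase of germ cells, stood at 83.8% and 80.4% with vehicle and 91.7% and 96.9% with C29 over 35 cytosines.

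Imprinted genes, at which the copy from one parent carries methylation, held 3 of the 4 called promoters of the gene lists, 2 of them 1 shared region. These were 3 of 24 measured, beside 1.07% of all promoters called lower. The 2 shares are not matched for level. Imprinted promoters averaged 50.8% and 47.6% in the vehicle libraries, against 17.3% and 17.2% over all promoters. A fall of the size a call needs hardly fits where the level is low. Whether imprinted promoters were called more often than other promoters of like level was not tested. Of the 24 promoters 5 were separated below and 4 above (20.8% and 16.7%, beside 14.3% and 10.4% of all promoters), with a median of -1.99 points. The promoter of Zdbf2 stood at 68.7% and 47.8% with vehicle and 4.17% and 31.3% with C29 over 6 cytosines, with a difference of -26.9 points without C29 1. Sgce and Peg10, neighbours read in opposite directions from one shared promoter, stood at 80% and 77.9% with vehicle and 21.1% and 62.7% with C29 over 5 cytosines. Without C29 1 that difference was -16.3 points and not called, and without C29 2 it was -57.9. H19, the noncoding RNA opposite Igf2, stood at 26% and 22.2% with vehicle and 40.8% and 44.9% with C29, and Igf2r at 36% and 49.6% against 49.9% and 61.3%. Of 30 bodies 4 were separated below and 9 above (13.3% and 30%, beside 18.2% and 12.4% of all bodies), while the median difference was -2.15 points. The body of Zdbf2 lay below like its promoter, at 84.1% and 88.5% with vehicle and 61.8% and 66.5% with C29 over 77 cytosines. The body of Peg10 lay above while its promoter lay below, at 61.2% and 64.7% with vehicle and 83.3% and 85.2% with C29.

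**Figure D5:**
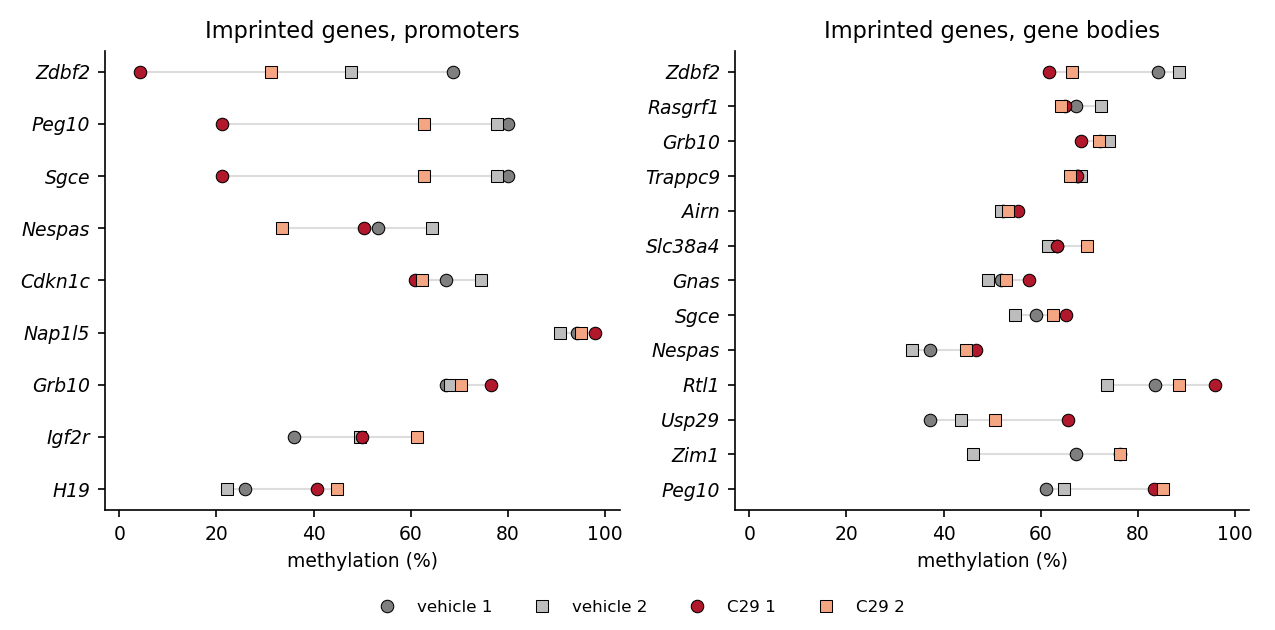
Methylation (%) of the promoters (left) and bodies (right) of imprinted genes whose C29 libraries (red and orange) lie on one side of both vehicle libraries (grey), in order of the difference. Zdbf2 lies lowest relative to vehicle in both panels, and Peg10 appears at the lower end for its promoter and at the upper end for its body.

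Markers of host and tumor cell types were read in the same way, and none was called. Beside the counts that follow, 18.2% of all bodies were separated below and 12.4% above, and 14.3% and 10.4% of all promoters. Among endothelial markers 1 of 4 bodies was separated below and 0 above, that of Pecam1 at 70% and 62.5% with vehicle and 56.4% and 55.8% with C29. Of 4 hematopoietic bodies 0 were below and 1 above, that of Spi1 at 82.9% and 61.6% with vehicle and 94.4% and 91% with C29. Of 4 fibroblast bodies 1 was below and 0 above, that of Pdgfrb at 74% and 76.2% with vehicle and 67% and 61.9% with C29. Of 6 adipocyte bodies 0 were below and 1 above, and of 6 bodies of mammary tumor epithelium 1 was below and 3 above, among them Krt18 at 7.69% and 3.28% with vehicle and 10.4% and 11.9% with C29. Of promoters, 1 endothelial, 2 fibroblast, 3 adipocyte and 3 epithelial ones were measured, 1 adipocyte (Pparg, at 46.6% and 46.2% against 33.9% and 41.3%) and 1 epithelial one (Epcam, at 22.5% and 16.7% against 14.3% and 2.23%) were separated below, and 0 were above. The mean body level was 72.1%, 73.5%, 66.8% and 72% in vehicle 1, vehicle 2, C29 1 and C29 2 for the endothelial markers, and 60.1%, 72.6%, 69.6% and 72.3% for the hematopoietic ones. It was 73.5%, 65.6%, 65% and 56.6% for the fibroblast markers, 58.9%, 62.5%, 59.8% and 65% for the adipocyte markers and 37.2%, 35.4%, 37.1% and 38.1% for the epithelial ones. The endothelial and fibroblast means lay below both vehicle libraries in both C29 libraries, though nearly touching, and the other means overlapped between groups. The part of cell composition in the differences was not tested.

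At the threshold of 25 points, tiles just inside and just outside a call were alike. A tile on chromosome 4 of 4 cytosines stood at 100% in both vehicle libraries and 75% in both C29 libraries, a difference of -25 points, and was called. A tile on chromosome 13 stood at 79.2% and 100% with vehicle and 66.7% and 62.5% with C29, a difference of -24.99 points, and was not.

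The same contrast exists beside 5-azadC, a DNA methyltransferase inhibitor given at 1 mg/kg, as the 2 libraries of tumors given both drugs against the 2 given 5-azadC alone. These share no library with C29 against vehicle. Of the lower tiles, 854 held 3 or more of the same cytosines at 10 or more reads there, and 380 (44.5%, 95% Wilson interval 41.2 to 47.8, which takes tiles as independent although they are not) were lower with C29 beside 5-azadC as well. Of all 52186 such tiles 42.9% were lower, and of those with a mean level of 20 to 95%, 44%. Of 554 higher tiles, 312 (56.3%, interval 52.2 to 60.4) were higher beside 5-azadC as well, against 49.9% of all and 55.7% of those with a mean level of 20 to 95%. The called tiles thus differed little from tested tiles of intermediate level in the side they took. Separated on the same side were 113 lower tiles (13.2%, against 13.2% at intermediate level) and 112 higher ones (20.2%, against 20.2%).

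Single tiles behaved in either way. Gria2 was at 0% and 19.2% with 5-azadC and 51.9% and 55.1% with both drugs over 3 cytosines, the same side as without 5-azadC. Phactr1 was at 62.9% and 27% with 5-azadC and 0% and 71.4% with both drugs, where the libraries overlapped. Over the 555155 cytosines with 10 or more reads in all 8 libraries, the mean was 34.4% in both vehicle libraries and 34.2% and 33.1% with C29. It was 30% and 30.4% with 5-azadC and 31.1% in both libraries of the combination. C29 thus went with a difference of -0.743 points alone and 0.872 points beside 5-azadC. The interaction was 1.61 points, with an exact permutation p of 0.0556, the smallest that the 36 assignments of the C29 label allow.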

How the data were processed

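Per the labels and as deposited, the authors aligned reads with Bismark 0.20.0 to mm10 (GRCm38), and their notes also name FastQC 0.11.8, Trim Galore 0.4.1 and methylKit 1.7.0. For each cytosine and strand the deposited files give the methylated fraction of the reads, as the authors made it. They also give the count of reads covering that cytosine, deposited without normalization. Methylated reads were taken as the fraction times the count.

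From these values, cytosines on the 19 autosomes with 10 or more reads in all 4 libraries were averaged with equal weight per tile, promoter and gene body (GENCODE annotation, 51229 genes). The logistic test of methylKit was rewritten in Python (NumPy 2.4.6, SciPy 1.17.1, pandas 2.3.3) and edgeR 4.0.16 was run in R 4.3.3. Both were run on simulated reads drawn without spread between libraries of a group. That cannot show how they err where libraries differ. A call needed an adjusted p under 0.01, a difference of 25 points or more in the equal-weight mean, and the same direction in summed reads. Named tiles and promoters are the 10 of each direction with the widest gap between the groups among called, separated regions with 100 or more reads in each library at protein-coding genes. These reads are summed over the cytosines of a region. Genes of lists and of wide tiles were picked for description after their values were seen. The lists were ERR receptors and coactivators, the ERRα signature, DNA methylation enzymes, methionine and folate cycle enzymes, mammary lineage and ErbB genes, interferon regulatory factors and antigen presentation genes, imprinted genes, germline genes, tumor suppressors and Wnt antagonists, epithelial and mesenchymal identity genes, and cell type markers. The members and the lists were chosen with earlier results of these data known. Coverage limits, tile length, strand handling, the test and each library were varied, some of these after the data were seen. Sex chromosomes were not analysed here, and some items are not reported here.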

Additional observations from a re-analysis of the deposited data

Results flagged for a closer look

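The difference in mean methylation between libraries with and without C29 had opposite signs without and with 5-azadC. Over the 555155 cytosines with 10 or more reads in all 8 libraries, it was 1.615 points higher beside 5-azadC than alone, a difference between groups. With 1 library left out at a time it ran from 1.05 (without C29 2) to 2.18 (without C29 1). The exact p of 0.0556 is the smallest this design can give.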

How the results depend on the processing

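Mean methylation kept its direction under every alternative, and the named tiles kept theirs where measured (13 of 20 at 20 reads, 19 of 20 with strands summed). Counts depended on filters. Of 21186 separated tiles, 13104 were left at 20 reads or more and 11734 at 5 or more cytosines per tile, against 37104 at 1 or more. Tiles called numbered 3542, or 1484 at 20 reads, 18531 at 1 or more cytosines, 891 at 5 or more and 15865 at a minimum difference of 10 points. With edgeR (4 libraries, or 8 libraries in 4 groups) and with the F test they numbered 0. Tiles both called and separated numbered 2827, or 1241, 11565 and 781 under the same filters on reads and cytosines. Promoters called went from 218 to 111 at 20 reads, to 109 with protein-coding genes only and to 0 with edgeR or the F test. Bodies called went from 293 to 181, 134 and 0. The smaller counts at higher minima of reads or cytosines, or with protein-coding genes only, come with fewer regions tested. The share of tested regions that was called was smaller there too. It was 1484 of 47100 tiles at 20 reads and 891 of 40631 at 5 or more cytosines, against 3542 of 74373.

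With 1 library left out, separated tiles ran from 41331 to 42801, called tiles from 5237 to 6416, tiles both called and separated from 4963 to 6197, called promoters from 289 to 424 and called bodies from 476 to 572. A single library stands apart from a pair more easily than 2 libraries do. The share of called tiles with the same direction beside 5-azadC ran from 46.3% (without C29+5-azadC 2) to 50.1%, beside 49.1%. The Dnmt3l body ran from -0.322 to 61.7 points, turning sign without vehicle 2, and the Timp3 promoter turned to 6.94 points at 5 reads. The cause was not tested.

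The libraries share replicate numbers but no known pairing, and deviations of same-numbered libraries had an r of 0.0051 over 74373 tiles. With the replicate block, the logistic test called 3585 tiles, 220 promoters and 298 bodies, and edgeR called 0 tiles.

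Copies made by PCR are not marked, 2 pools per group leave little room for spread between animals, and depth limits single cytosines to steps of up to 10 points.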
